A study of Mus musculus with 12 samples.

Results

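The secretoglobins and the BPI-fold proteins of the Bpifa and Bpifb branches are secreted proteins of mucosal surfaces and glands, and their genes were followed here in medullary thymic epithelial cells (mTECs) of mice. The genes were all those whose symbol begins with Scgb and a digit, or with Bpifa or Bpifb, among array probe sets assigned to 1 gene symbol. This gave 36 genes of the 22154 measured: 12 Scgb2b genes (1 of them, Scgb2b23-ps, a transcribed pseudogene), 7 Scgb1b genes, 4 other secretoglobins (Scgb1a1, Scgb1c1, Scgb3a1 and Scgb3a2), 5 Bpifa genes and 8 Bpifb genes. RNA from Aire-/- and Aire+/+ mice and from Brg1-/- and Brg1+/+ mice, all labelled C57BL/6 and aged 4 weeks, was hybridised to 12 biotin-labelled Affymetrix mouse arrays. The mTECs were sorted from digested, stroma-enriched thymi as live, UEA-binding epithelial cells (Epcam+, Ly51-low, without CD45) and split by MHC class II into a high fraction (mTEChi, 2 arrays in each of 4 genotypes) and a low fraction (mTEClo, 1 array in each). Aire is a transcriptional regulator that lets mTECs express genes of peripheral tissues, and Brg1, encoded by Smarca4, is the ATP-hydrolysing motor of SWI/SNF, a complex that moves nucleosomes. The alleles, any promoter or Cre driver, and whether thymi were pooled are not given in the sources used here. No label says that arrays 1 and 2 of a group came from separate mice, so p-values speak to the scatter among these samples alone, and that scatter may be technical.

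Secretoglobins are small secreted proteins that form disulphide-linked dimers. Scgb1a1 (uteroglobin, or club cell secretory protein) is the abundant secretory product of airway club cells, and Scgb3a1 and Scgb3a2 are also made by airway secretory cells. The Scgb1b and Scgb2b genes encode the alpha subunits and the beta or gamma subunits of mouse androgen-binding proteins of saliva and tears, which pair as heterodimers. BPI-fold proteins are lipid-binding relatives of the bactericidal permeability-increasing protein; Bpifa1 (SPLUNC1) coats the upper airway, Bpifa2 is the parotid secretory protein of saliva, Bpifa5 is known from tongue epithelium and Bpifb1 (LPLUNC1) from the airways. In mTECs such proteins count among the self antigens of peripheral tissues that are shown to developing T cells.

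Values are log2 intensities, and a difference of 1 on that scale is a 2-fold change. Array medians lay between 5.07 and 5.32. Of the genes behind the sort, the MHC class II gene H2-Aa read 11.07 and 11.93 in Aire+/+ mTEChi, beside 11.18 and 12.11 in Brg1+/+ mTEChi, against 10.83 and 10.31 in the Aire+/+ and Brg1+/+ mTEClo arrays. The arrays did not overlap, but the difference of 1.00 did not pass the test (adjusted p = 0.345), and Epcam differed by -0.45 (adjusted p = 0.591). Cd80, a costimulatory molecule of mature mTECs that was not a sort marker, was higher in wild-type mTEChi by 3.05 (adjusted p = 0.01). The mean of 7 markers of dendritic cells, macrophages and B cells lay between 4.81 and 5.13 on all arrays. Its member Ptprc, the gene of CD45, moved more. Ptprc read 4.96, 5.25, 4.93 and 4.89 in wild-type mTEChi (Aire+/+, then Brg1+/+), against 5.81 and 6.07 in their mTEClo arrays. In Brg1-/- mTEChi Ptprc read 5.48 and 5.84. Its differences of -0.93 between wild-type fractions and 0.75 with Brg1 loss did not pass, beside list medians of 0.03 and -0.13. Their part in other differences was not tested. The targeted genes did not check the genotype labels, since the position of each probe set relative to the deleted sequence is not known here. Aire read 9.01 and 9.73 in Aire-/- mTEChi, against 8.04 and 8.80 in Aire+/+ mTEChi, and Smarca4 read 5.88 and 5.44 in Brg1-/- mTEChi, against 6.13 and 6.89 in Brg1+/+ mTEChi. Neither difference passed the test (adjusted p = 1 for each). Directions below are therefore those between arrays as labelled.

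The first question was what the loss of Aire did to these genes in mTEChi. Of the 36 genes, 7 fell and 0 rose in Aire-/- mTEChi relative to Aire+/+ mTEChi (limma over all 22154 genes, Benjamini-Hochberg adjusted p under 0.05, two-sided). Over all genes, 0.772% fell and 0.0226% rose. The 7 were the salivary and oral genes Bpifa2 and Bpifa5, the androgen-binding protein subunit genes Scgb2b2, Scgb2b7, Scgb2b26 and Scgb2b27, and the airway gene Scgb1a1. Whatever their test, 32 of the 36 differences lay below 0, and both Aire-/- arrays lay below both Aire+/+ arrays for 26 of the 36 genes, against 11.6% of all genes, and above them for 1, against 15.9%. With array number as a block, 13 of the 36 fell, against 2.1% of all genes; the added genes were Bpifa1, Bpifa6, Bpifb1, Scgb1b27, Scgb2b20 and Scgb3a2, with adjusted p of 0.00627 to 0.0363. The block removes shifts shared by arrays of the same number, whose meaning the labels do not give. At least 2-fold lower were 19 of the 36, against 3.44% of all genes. The median difference of the 36 genes was -1.12, and that of all genes was 0.06. The mean of 8 fibroblast and endothelial markers was 6.04 and 5.96 in Aire-/- mTEChi, against 5.74 and 5.78 in Aire+/+ mTEChi, without overlap, and its part in the differences was not tested. In that list Dcn differed by 0.88, Lum by 1.39, Col1a1 by 0.24 and Kdr by 0.11. Pdgfra differed by -0.39, Cdh5 by -0.22, Col3a1 by -0.085 and Pecam1 by -0.01. The median of the 8 genes was 0.05, against 0.06 for all genes, and 0 of the 8 passed. In these sorted bulk samples, fewer cells that express a gene cannot be told apart from less RNA per cell.

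**Figure D1:**
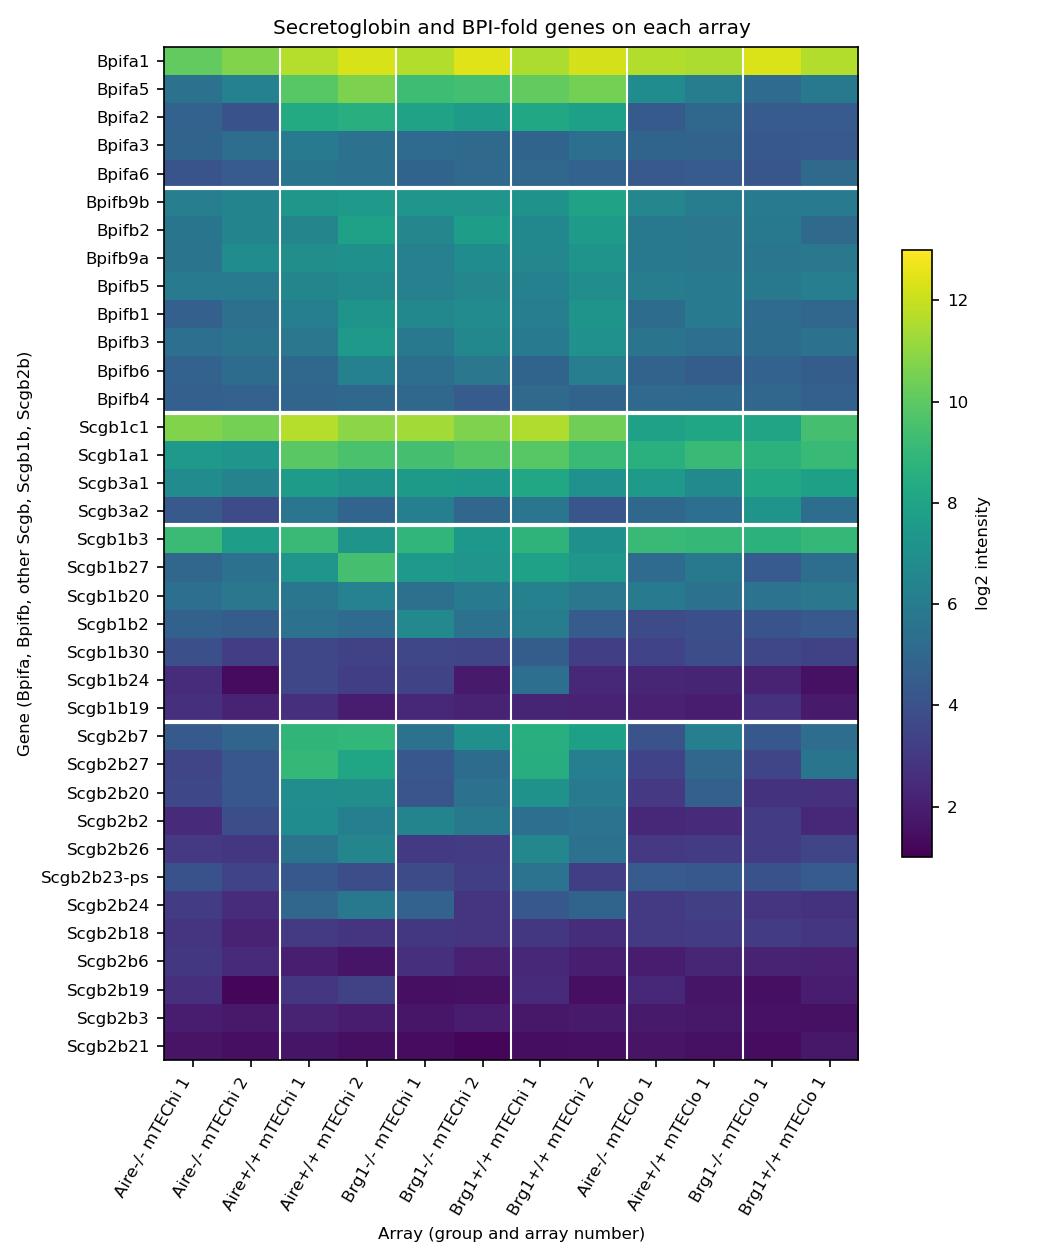
Log2 intensity (colour) of the 36 genes (rows, grouped into Bpifa, Bpifb, other secretoglobins, Scgb1b and Scgb2b) on the 12 arrays (columns, by group and array number). Bpifa2, Bpifa5 and several Scgb2b rows are bright in Aire+/+, Brg1-/- or Brg1+/+ mTEChi and dark in Aire-/- mTEChi and in mTEClo, while Scgb2b21 lies between 1.19 and 1.77 on every array.

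Among the BPI-fold genes, the largest differences were those of Bpifa5 and Bpifa2. Bpifa5 read 5.49 and 6.25 in Aire-/- mTEChi, against 9.90 and 10.62 in Aire+/+ mTEChi. This was a difference of -4.39, or 21-fold lower (SE 0.362, n = 2 and 2, limma adjusted p = 0.00291). The arrays of the groups lay far apart, and the Aire-/- mTEChi values stood in the range of the 4 mTEClo arrays, which read 5.18 to 6.85. Bpifa2 read 4.75 and 4.04 in Aire-/- mTEChi, against 8.34 and 8.51 in Aire+/+ mTEChi, a difference of -4.03, or 16.3-fold lower (SE 0.313, limma adjusted p = 0.00245). Here too the groups did not overlap, and mTEClo arrays read 4.38 to 5.02. Both genes passed under all 11 alternative settings tried, which included leaving out each of the 4 arrays.

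Bpifa1, the airway surface protein gene that lies next to Bpifa5 among the measured members on chromosome 2, still read above 10 on both Aire-/- mTEChi arrays. It read 10.11 and 10.71 in Aire-/- mTEChi, against 11.68 and 12.26 in Aire+/+ mTEChi, a difference of -1.56 (95% interval -2.51 to -0.61, limma adjusted p = 0.286). The groups did not overlap but the difference did not pass the test over all genes. Within array number, the difference was -1.57 for number 1 and -1.55 for number 2. Bpifa6 read 4.10 and 4.44 in Aire-/- mTEChi, against 5.68 and 5.46 in Aire+/+ mTEChi, and its difference of -1.30 also missed the threshold (adjusted p = 0.0993). Bpifa3 was the remaining Bpifa gene, with 4.88 and 5.33 in Aire-/- mTEChi against 5.88 and 5.48 in Aire+/+ mTEChi. All 5 Bpifa differences lay below 0, with a median of -1.56, against a median of 0.06 for all genes.

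The sequences just upstream of Bpifa1 and Bpifa5 are shown because these neighbours resemble each other there and yet differed in how far their readings were apart in Aire-/- mTEChi. In RefSeq promoter windows of assembly GRCm38.p6, taken from 250 bases before to 50 bases after each start, the aligned windows of Bpifa1 and Bpifa5 were 72.3% identical, more than the other pairs of Bpifa genes, which were 51.4% to 54.4% identical. Capitals mark TATAAA, written 5′ to 3′ on the strand of the gene.
Bpifa1 (chr2:154142811-154142896, + strand): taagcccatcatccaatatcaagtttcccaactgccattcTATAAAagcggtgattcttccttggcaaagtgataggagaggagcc
Bpifa5 (chr2:154162539-154162624, + strand): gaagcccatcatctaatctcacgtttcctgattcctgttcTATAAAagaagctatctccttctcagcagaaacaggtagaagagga
TATAAA was searched on both strands and was found in 4473 of 32851 promoter windows (13.6%), and in 4 of the 13 Bpif genes with a window. A match of these letters is a description of the window and not a known binding site. Across the 12 arrays, Bpifa5 followed Bpifa2 (Pearson r = 0.959) more closely than Bpifa1 (r = 0.481), although the Bpifa2 and Bpifa5 windows were only 54.4% identical. These correlations share their arrays and groups and are given as descriptions.

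The Bpifb genes had smaller differences, and 0 of 8 passed. All 8 lay below 0 in Aire-/- mTEChi, with a median of -0.93, against a median of 0.06 for all genes. For 7 of them both Aire-/- arrays lay below both Aire+/+ arrays, against 11.6% of all genes. Bpifb1 read 4.67 and 5.42 in Aire-/- mTEChi, against 6.17 and 7.20 in Aire+/+ mTEChi, a difference of -1.64 (SE 0.483, limma adjusted p = 0.420). The groups did not overlap, but the Aire+/+ arrays differed from each other by more than the gap between the nearest arrays of both groups. Bpifb9b, whose rat relative vomeromodulin is known from vomeronasal glands, read 6.14 and 6.42 in Aire-/- mTEChi, against 7.36 and 7.49 in Aire+/+ mTEChi (difference -1.15, adjusted p = 0.304). Bpifb2 read 5.67 and 6.41 in Aire-/- mTEChi, against 6.48 and 7.85 in Aire+/+ mTEChi, with a difference of -1.13 (adjusted p = 1). Its Aire-/- array 2 lay just under its Aire+/+ array 1.

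**Figure D2:**
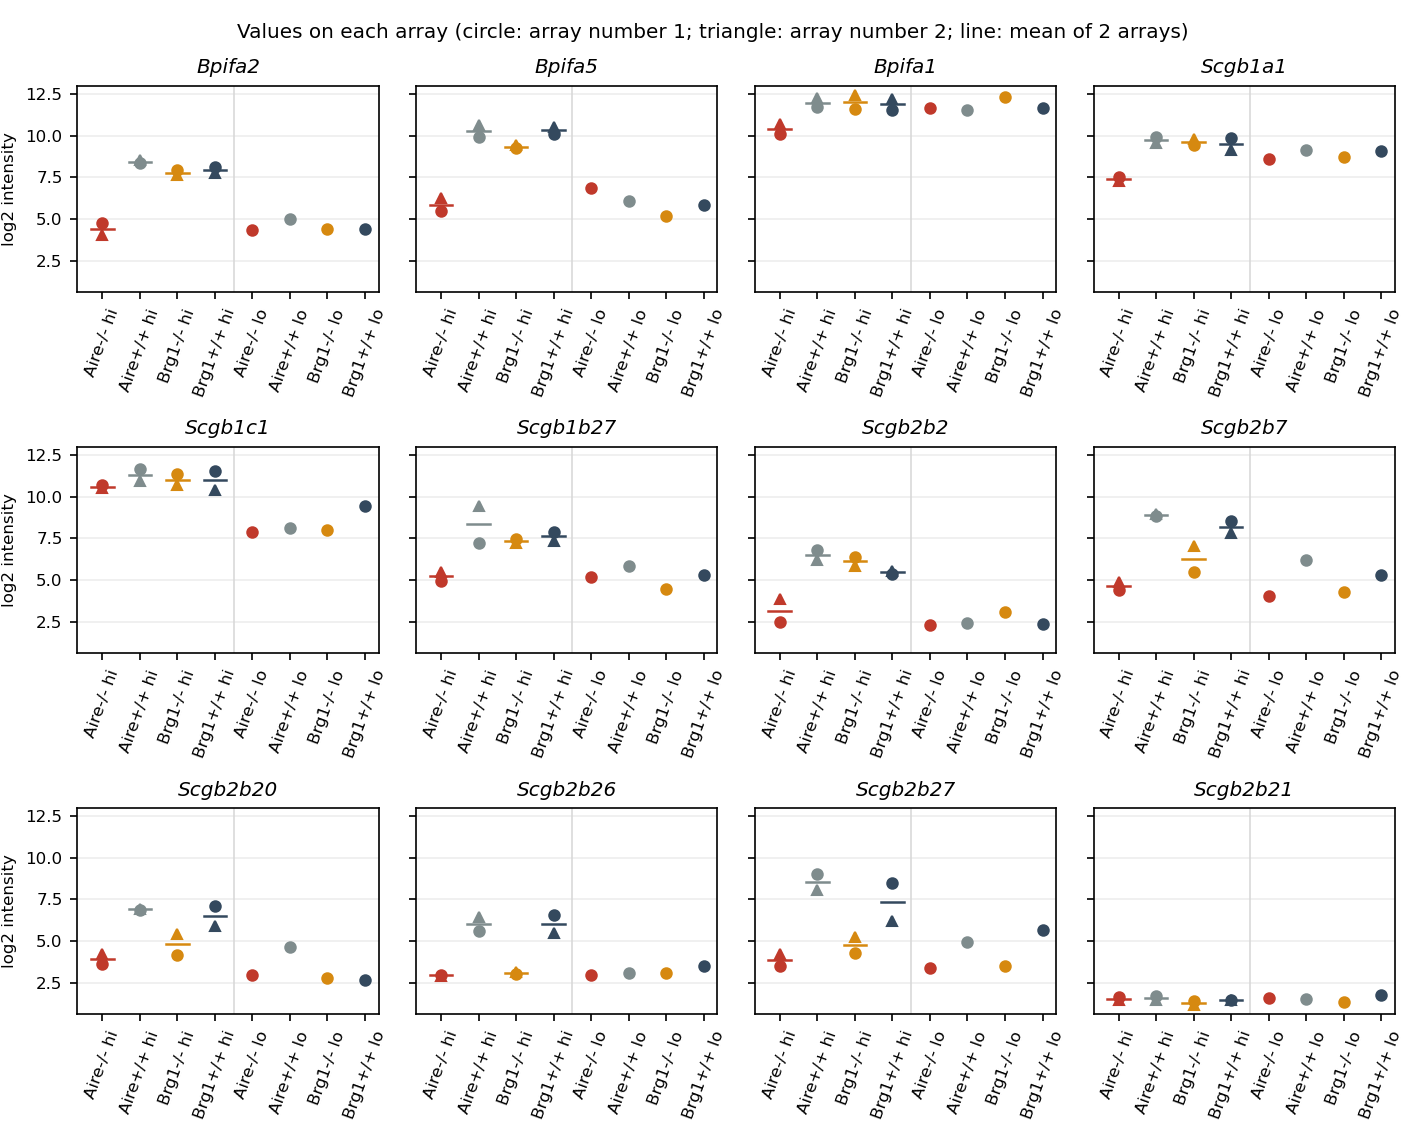
Log2 intensity of 12 genes on each array, with the mTEChi groups left of the vertical line (hi) and the mTEClo groups right of it (lo). Circles are array number 1, triangles array number 2 and short lines the mean of 2 arrays; Bpifa2 and Bpifa5 are low in Aire-/- mTEChi alone among the mTEChi groups, while Scgb2b26 is low in both Aire-/- and Brg1-/- mTEChi.

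Of the airway secretoglobins, Scgb1a1 fell. Scgb1a1 read 7.51 and 7.31 in Aire-/- mTEChi, against 9.94 and 9.54 in Aire+/+ mTEChi, a difference of -2.33, or 5.03-fold lower (SE 0.322, limma adjusted p = 0.0252). The call was lost when any of the 4 arrays was left out: adjusted p was 0.141 without Aire-/- array 1, 0.197 without Aire-/- array 2, 0.189 without Aire+/+ array 1 and 0.108 without Aire+/+ array 2. The Aire-/- mTEChi arrays were also below the 4 mTEClo arrays, which read 8.62 to 9.12. Scgb3a1 read 6.78 and 6.39 in Aire-/- mTEChi, against 7.62 and 7.21 in Aire+/+ mTEChi (difference -0.83, 95% interval -1.75 to 0.09, adjusted p = 1). Scgb3a2 read 4.37 and 3.74 in Aire-/- mTEChi, against 5.70 and 4.90 in Aire+/+ mTEChi (difference -1.25, 95% interval -2.66 to 0.17, adjusted p = 1). For both Scgb3a genes the arrays did not overlap, and the intervals take in 0. Scgb1c1, known from rat olfactory mucosa, read 10.71 and 10.49 in Aire-/- mTEChi, against 11.66 and 10.92 in Aire+/+ mTEChi, a difference of -0.69 with an interval of -1.74 to 0.36.

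The Scgb2b genes held the widest spread among themselves. Of 12, 4 fell in Aire-/- mTEChi, 11 had a difference below 0, and the median was -1.89. Scgb2b27 read 3.53 and 4.24 in Aire-/- mTEChi, against 8.99 and 8.07 in Aire+/+ mTEChi, a difference of -4.65, or 25-fold lower (SE 0.737, limma adjusted p = 0.0443). Scgb2b7 read 4.39 and 4.91 in Aire-/- mTEChi, against 8.85 and 8.95 in Aire+/+ mTEChi (difference -4.25, SE 0.501, adjusted p = 0.0128). The groups of both genes were far from overlapping. Scgb2b2 read 2.49 and 3.86 in Aire-/- mTEChi, against 6.82 and 6.20 in Aire+/+ mTEChi (difference -3.33, SE 0.470, adjusted p = 0.0272). Scgb2b26 read 2.97 and 2.94 in Aire-/- mTEChi, against 5.63 and 6.45 in Aire+/+ mTEChi (difference -3.08, SE 0.406, adjusted p = 0.0193). For these 2 genes as well, each Aire-/- array lay more than 2 log2 units below each Aire+/+ array.

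The calls on these 4 Scgb2b genes rested on the arrays present. Without Aire-/- array 1 the adjusted p was 0.286 for Scgb2b27, 0.104 for Scgb2b7, 0.102 for Scgb2b2 and 0.140 for Scgb2b26. Without Aire-/- array 2 it was 0.192 for Scgb2b27, 0.0668 for Scgb2b7 and 0.146 for Scgb2b26, and Scgb2b2 passed. Without Aire+/+ array 1 it was 0.249 for Scgb2b27, 0.0929 for Scgb2b7, 0.189 for Scgb2b2 and 0.0576 for Scgb2b26. Without Aire+/+ array 2 it was 0.139 for Scgb2b27, 0.0979 for Scgb2b7, 0.103 for Scgb2b2 and 0.126 for Scgb2b26. Scgb2b27 also missed the threshold after quantile normalization (adjusted p = 0.0577). Of the 36 genes, 2 or 3 stayed past the threshold in each of these 4 reduced fits, in place of 7.

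Scgb2b20 read 3.61 and 4.25 in Aire-/- mTEChi, against 6.89 and 6.92 in Aire+/+ mTEChi, and its difference of -2.98 did not pass (SE 0.536, adjusted p = 0.0719). Scgb2b24 read 3.11 and 2.50 in Aire-/- mTEChi, against 4.95 and 5.83 in Aire+/+ mTEChi (difference -2.58, adjusted p = 0.219). In both genes the groups were well separated. Scgb2b6 was the exception in direction, with 2.93 and 2.43 in Aire-/- mTEChi against 2.03 and 1.70 in Aire+/+ mTEChi, a difference of 0.82 that did not pass (adjusted p = 0.771). The other 5 Scgb2b genes, Scgb2b3, Scgb2b18, Scgb2b19, Scgb2b21 and Scgb2b23-ps, had differences between -1.19 and -0.01, and none passed. Among them Scgb2b21 read 1.19 to 1.77 and Scgb2b3 read 1.55 to 2.19 on all 12 arrays, where a change in RNA could not be seen if the probe sets sat at background; no detection p was used.

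Promoter windows are shown for the Scgb2b genes because 11 of the 12 had one and all 11 held the same run of letters, while their readings differed in Aire-/- and Brg1-/- mTEChi. The run, ATAATNNTTNATA, is the letters that all 11 share over 13 bases, with N where they differ, and was chosen after the sequences had been viewed; it was searched on both strands and occurred in 47 of 32851 windows (0.143%). Where its base 10 is T, the last bases of the run read TATAAA on the opposite strand, so the matches overlap; TATAAA was found in 9 of the 11 windows. Each line gives the run in capitals with its flanks, 5′ to 3′ on the strand of the gene, from RefSeq on GRCm38.p6.
Scgb2b2 (chr7:31302705-31302757, + strand): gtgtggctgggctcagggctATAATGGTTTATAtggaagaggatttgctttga
Scgb2b24 (chr7:33739315-33739367, - strand): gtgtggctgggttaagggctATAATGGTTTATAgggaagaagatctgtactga
Scgb2b6 (chr7:31619551-31619603, - strand): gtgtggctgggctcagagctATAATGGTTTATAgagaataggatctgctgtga
Scgb2b21 (chr7:33520464-33520516, - strand): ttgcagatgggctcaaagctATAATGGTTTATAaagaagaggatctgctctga
Scgb2b7 (chr7:31705762-31705814, - strand): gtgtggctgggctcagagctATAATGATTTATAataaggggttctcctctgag
Scgb2b20 (chr7:33366324-33366376, - strand): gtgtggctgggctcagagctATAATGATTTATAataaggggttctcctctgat
Scgb2b19 (chr7:33280344-33280396, - strand): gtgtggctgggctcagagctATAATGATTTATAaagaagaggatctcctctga
Scgb2b18 (chr7:33173866-33173918, - strand): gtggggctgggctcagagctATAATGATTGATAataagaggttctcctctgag
Scgb2b26 (chr7:33944989-33945041, - strand): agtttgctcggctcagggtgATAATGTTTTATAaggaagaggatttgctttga
Scgb2b27 (chr7:34013893-34013943, - strand): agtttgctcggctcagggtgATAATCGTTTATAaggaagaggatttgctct
Scgb2b3 (chr7:31362094-31362146, - strand): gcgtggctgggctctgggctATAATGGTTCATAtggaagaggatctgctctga
Counted from 1 at the 5′ end of the capitals and relative to Scgb2b2, Scgb2b24, Scgb2b6 and Scgb2b21 had no substitution, and Scgb2b7, Scgb2b20 and Scgb2b19 had G7A. Scgb2b18 had G7A and T10G, Scgb2b26 had G7T, Scgb2b27 had G6C and Scgb2b3 had T10C. Among the genes with the same letters, Scgb2b2 differed by -3.33 and Scgb2b24 by -2.58 between Aire-/- and Aire+/+ mTEChi. Scgb2b6 and Scgb2b21 read at most 2.93 and 1.77 on any array, where a change could be missed, so their differences are not set beside these. Scgb2b7 and Scgb2b20 had windows that were 98.7% identical and followed each other over the 12 arrays (r = 0.957). Scgb2b18 was 96.3% identical to Scgb2b7 and stayed dim on all arrays (2.19 to 3.15), with 2.87 and 2.19 in Aire-/- mTEChi, against 3.04 and 2.79 in Aire+/+ mTEChi. Close paralogues such as Scgb2b7 and Scgb2b20 can share probes, so their values are uncertain to that extent. Probe sets assigned to both Scgb2b20 and Scgb2b7 had the same values on all 12 arrays and were not used as members. They read 4.50 and 4.84 in Aire-/- mTEChi, against 5.05 and 6.01 in Aire+/+ mTEChi. These groups lay nearer each other than those of the probe sets used for either gene.

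The Scgb1b genes, which encode the alpha subunits, had 0 of 7 past the test and a median difference of -0.48. Scgb1b27 came nearest, with 4.95 and 5.51 in Aire-/- mTEChi against 7.24 and 9.44 in Aire+/+ mTEChi. The groups did not overlap, but the Aire+/+ arrays were far from each other, and the difference of -3.11 did not pass (SE 0.641, adjusted p = 0.119). Scgb1b2 read 4.73 and 4.53 in Aire-/- mTEChi, against 5.51 and 5.21 in Aire+/+ mTEChi, and Scgb1b24 read 2.51 and 1.33 in Aire-/- mTEChi, against 3.55 and 3.23 in Aire+/+ mTEChi. The remaining 4, Scgb1b3, Scgb1b19, Scgb1b20 and Scgb1b30, overlapped between Aire-/- and Aire+/+ arrays on the probe sets used. The windows of Scgb1b27 and Scgb1b2 are shown to set beside those of their Scgb2b partners; capitals mark TATAAA, which was present in 4 of 4 Scgb1b windows, and the strand runs with the gene.
Scgb1b27 (chr7:34021493-34021530, + strand): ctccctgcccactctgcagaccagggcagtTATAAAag
Scgb1b2 (chr7:31291810-31291875, - strand): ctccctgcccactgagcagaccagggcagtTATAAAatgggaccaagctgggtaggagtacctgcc
Neither window holds ATAATNNTTNATA. A probe set assigned jointly to Scgb1b29, Scgb1b3, Scgb1b12 and Scgb1b19, also left out of the 36, read 5.44 and 5.97 in Aire-/- mTEChi, against 6.47 and 7.03 in Aire+/+ mTEChi, and another with the same symbols read 5.11 and 6.18 in Aire-/- mTEChi, against 6.46 and 7.81 in Aire+/+ mTEChi. One assigned to Scgb1b12 and Scgb1b19 lay the other way without overlap, at 6.35 and 6.03 in Aire-/- mTEChi against 5.86 and 5.62 in Aire+/+ mTEChi.

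The next comparison set the loss of Brg1 in mTEChi beside its own wild type. In Brg1-/- mTEChi, 0 of the 36 genes passed in either direction relative to Brg1+/+ mTEChi, and over all genes 0% passed (limma; 5 of the 36 and 301 of 22154 had an unadjusted p under 0.05). Brg1-/- arrays lay below Brg1+/+ arrays without overlap for 6 of the 36 genes, against 9.62% of all genes, and above them for 1, against 9.77%. At least 2-fold lower were 5 of the 36, against 0.474% of all genes, and 4 of these 5 were Scgb2b genes. The median difference of the 36 was -0.17, and that of all genes was 0.

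Scgb2b26 had the largest difference of the 36 in this comparison. It read 3.06 and 3.14 in Brg1-/- mTEChi, against 6.55 and 5.51 in Brg1+/+ mTEChi, a difference of -2.93 (95% interval -3.88 to -1.98, adjusted p = 1). The groups stood more than 2 log2 units apart, and the Brg1-/- values lay in the range of the mTEClo arrays, 3.01 to 3.51. Scgb2b27, its neighbour among the members on chromosome 7, read 4.27 and 5.24 in Brg1-/- mTEChi, against 8.46 and 6.20 in Brg1+/+ mTEChi (difference -2.58, 95% interval -4.30 to -0.85, adjusted p = 1). The arrays did not overlap, but the difference was -4.19 within number 1 and -0.96 within number 2. Scgb2b7 read 5.51 and 7.02 in Brg1-/- mTEChi, against 8.52 and 7.83 in Brg1+/+ mTEChi, or -3.01 and -0.81 within numbers 1 and 2. Scgb2b20 read 4.16 and 5.46 in Brg1-/- mTEChi, against 7.13 and 5.91 in Brg1+/+ mTEChi, or -2.97 and -0.45 within numbers. For these 3 genes the difference was larger within number 1 than within number 2. The probe sets assigned to both Scgb2b20 and Scgb2b7 overlapped, at 4.86 and 5.44 in Brg1-/- mTEChi, against 5.29 and 5.33 in Brg1+/+ mTEChi. Both probe sets assigned jointly to Scgb1b29, Scgb1b3, Scgb1b12 and Scgb1b19 were lower without overlap. One read 5.44 and 6.34 in Brg1-/- mTEChi, against 7.27 and 6.39 in Brg1+/+ mTEChi. The other read 5.19 and 6.63, against 7.24 and 6.66, so both were close on number 2. The one assigned to Scgb1b12 and Scgb1b19 overlapped.

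Bpifa2 and Bpifa5, the BPI-fold genes of saliva and tongue, did not pass in Brg1-/- mTEChi. Bpifa2 read 7.92 and 7.63 in Brg1-/- mTEChi, against 8.15 and 7.77 in Brg1+/+ mTEChi, and the groups overlapped (difference -0.19, 95% interval -0.92 to 0.55). Bpifa5 read 9.27 and 9.41 in Brg1-/- mTEChi, against 10.12 and 10.49 in Brg1+/+ mTEChi, without overlap (difference -0.97, 95% interval -1.81 to -0.12, adjusted p = 1). Scgb1a1 read 9.44 and 9.80 in Brg1-/- mTEChi, against 9.86 and 9.14 in Brg1+/+ mTEChi, a difference of 0.12 (95% interval -0.63 to 0.87). Bpifa1 read 11.61 and 12.40 in Brg1-/- mTEChi, against 11.53 and 12.21 in Brg1+/+ mTEChi, and again the groups overlapped. Scgb2b2 was the gene with arrays above Brg1+/+ without overlap, at 6.40 and 5.85 in Brg1-/- mTEChi against 5.39 and 5.58 in Brg1+/+ mTEChi (difference 0.64, 95% interval -0.46 to 1.74). Beside these values, the mean of 8 thymocyte markers was 5.96 and 7.16 in Brg1-/- mTEChi, against 6.05 and 6.12 in Brg1+/+ mTEChi, and that of the fibroblast and endothelial markers was 5.74 and 5.70 in Brg1-/- mTEChi, against 5.66 and 5.62 in Brg1+/+ mTEChi. Their part in the differences was not tested.

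**Figure D3:**
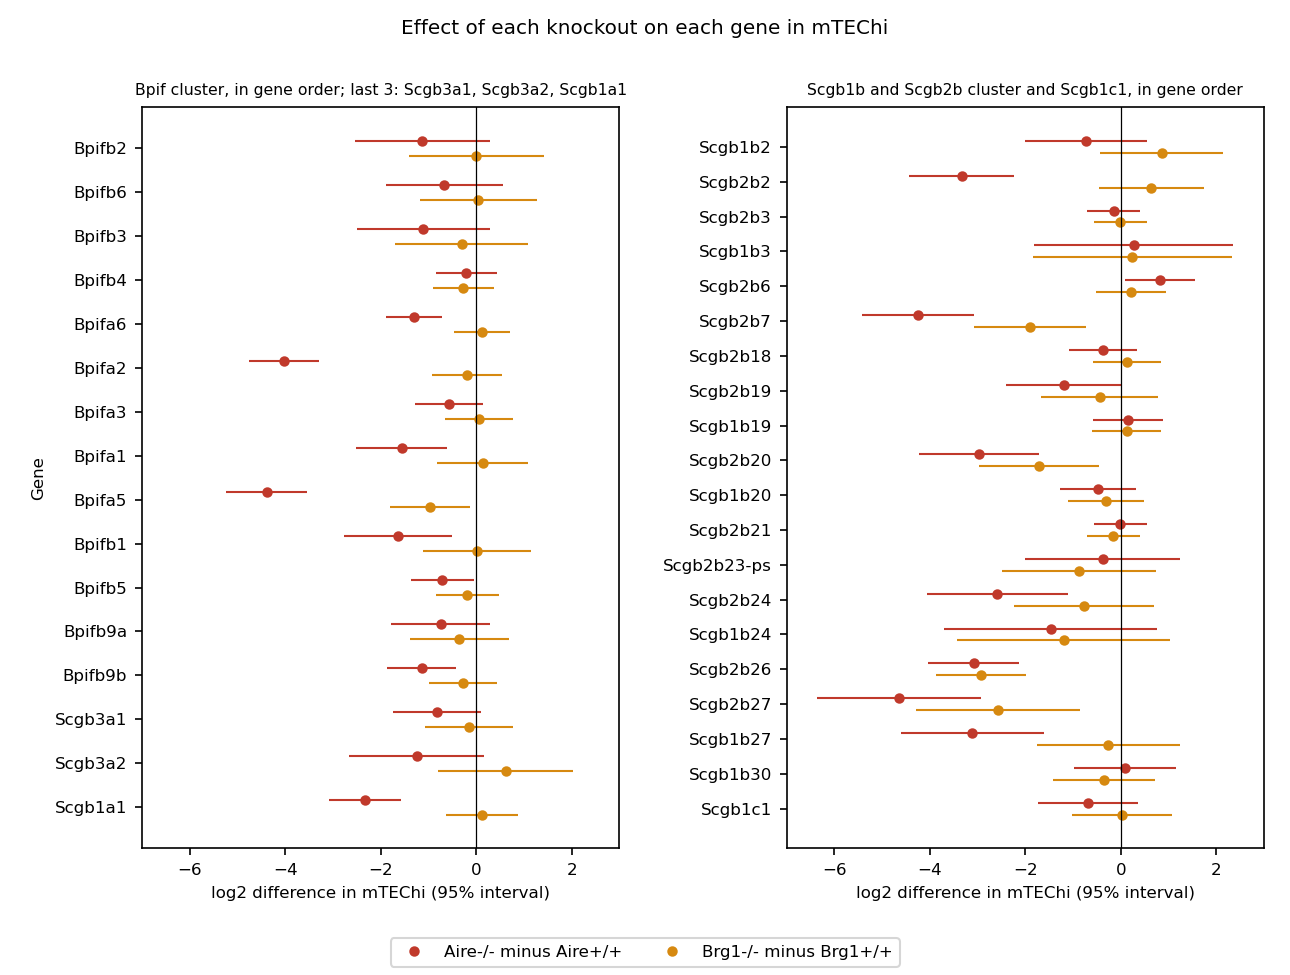
Log2 difference in mTEChi (points) with its 95% interval (lines) for each of the 36 genes, Aire-/- minus Aire+/+ in red and Brg1-/- minus Brg1+/+ in orange, in gene order along the chromosome. Bpifa2 is at -4.03 for Aire and -0.19 for Brg1, while Scgb2b26 is at -3.08 for Aire and -2.93 for Brg1.

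Whether the effects of both knockouts differed was tested directly, as the Brg1 effect minus the Aire effect. Of the 36 genes, 1 passed, Bpifa2, with a difference of effects of 3.85 (SE 0.443, limma adjusted p = 0.0328); over all genes 0.135% passed in that direction. The call on Bpifa2 was lost in all 8 fits that left out 1 array: adjusted p was 0.0629 without Aire-/- array 1, 0.105 without Aire-/- array 2, 0.133 without Aire+/+ array 1, 0.180 without Aire+/+ array 2, 0.225 without Brg1-/- array 1, 0.177 without Brg1-/- array 2, 0.0660 without Brg1+/+ array 1 and 0.125 without Brg1+/+ array 2. Bpifa5 had a difference of effects of 3.43 (adjusted p = 0.0866), Scgb2b2 one of 3.98 (adjusted p = 0.132) and Scgb1a1 one of 2.45 (adjusted p = 0.188), and these 3 did not pass. With array number as a block, 6 of the 36 passed, against 0.844% of all genes: Bpifa2 (adjusted p = 0.00568), Bpifa5 (adjusted p = 0.00352), Scgb3a2, Scgb2b2, Bpifa1 and Scgb1a1 (adjusted p of 0.0366 to 0.0475). Scgb2b26 had the nearest pair of effects among the 7 genes that fell without Aire, with a difference of 0.16 whose 95% interval ran from -1.19 to 1.50. That interval leaves room for a gap of more than 2-fold either way.

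The third comparison set mTEChi against mTEClo in the wild types of both lines. Of the 36 genes, 8 were higher in wild-type mTEChi and 0 were lower, against 1.93% of all genes higher and 0.632% lower. The 8 were Bpifa2, Bpifa5, Bpifb9b, Scgb1c1, Scgb2b2, Scgb2b7, Scgb2b20 and Scgb2b26. With array number as a block 12 were higher, against 4.43% of all genes, and the added genes were Bpifb2, Scgb1b2, Scgb1b24 and Scgb1b27 (adjusted p of 0.00497 to 0.0206). The block sets this difference at the level of array number 1. Its shifts between numbers are estimated from the knockout mTEChi arrays as well. For 21 of the 36 genes all 4 mTEChi arrays lay above both mTEClo arrays, against 11.4% of all genes, and 18 were at least 2-fold higher, against 5% of all genes. The median difference of the 36 was 0.92, and that of all genes was -0.10. Both mTEClo arrays carried the number 1 while mTEChi arrays carried both numbers, and the Aire+/+ mTEChi arrays also served as the control of the Aire comparison, so the results of both comparisons share arrays. The mean of the thymocyte markers was 5.59 and 6.63 in Aire+/+ and 6.05 and 6.12 in Brg1+/+ mTEChi, against 5.31 and 5.20 in the Aire+/+ and Brg1+/+ mTEClo arrays. The mean of the fibroblast and endothelial markers lay the other way, at 5.74 and 5.78 in Aire+/+ and 5.66 and 5.62 in Brg1+/+ mTEChi, against 6.23 and 6.07 in those mTEClo arrays. Both lists separated the fractions without overlap, 0 genes of either passed, and their part in the differences was not tested.

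Bpifa5 read 9.90 and 10.62 in Aire+/+ mTEChi, beside 10.12 and 10.49 in Brg1+/+ mTEChi, against 6.08 in Aire+/+ mTEClo and 5.84 in Brg1+/+ mTEClo. The difference was 4.32 (SE 0.314, n = 4 and 2, limma adjusted p = 0.00184). Bpifa2 read 8.34 and 8.51 in Aire+/+ mTEChi, beside 8.15 and 7.77 in Brg1+/+ mTEChi, against 5.02 and 4.43 in the Aire+/+ and Brg1+/+ mTEClo arrays, a difference of 3.47 (SE 0.271, adjusted p = 0.00229). In each line both mTEChi arrays of these 2 genes lay above the mTEClo array, and both genes passed under all 12 alternatives tried. Scgb2b2 read 6.82 and 6.20 in Aire+/+ mTEChi, beside 5.39 and 5.58 in Brg1+/+ mTEChi, against 2.43 in Aire+/+ mTEClo and 2.39 in Brg1+/+ mTEClo (difference 3.59, SE 0.407, adjusted p = 0.00757).

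Scgb2b2 passed under 10 of 11 alternatives and missed the threshold in the Brg1 line alone. The other 5 called genes passed under smaller shares of the alternatives. Of these, Scgb2b26 passed under 9 of 11. All 5 missed the threshold in each line alone. Scgb2b20 differed by 3.02 (adjusted p = 0.0188), Scgb2b7 by 2.79 (adjusted p = 0.0196) and Scgb2b26 by 2.72 (adjusted p = 0.0109). Without Aire+/+ mTEChi array 1, the calls on Scgb2b7, Scgb2b20, Bpifb9b and Scgb1c1 were lost. Without Aire+/+ mTEChi array 2, those on Scgb2b7, Scgb2b20 and Bpifb9b were lost, and without Brg1+/+ mTEChi array 1, that on Scgb2b7. Scgb1c1 read 11.66 and 10.92 in Aire+/+ mTEChi, beside 11.55 and 10.41 in Brg1+/+ mTEChi, against 8.12 in Aire+/+ mTEClo and 9.44 in Brg1+/+ mTEClo. Its difference of 2.36 (SE 0.389, adjusted p = 0.0249) was 3.17 in the Aire line and 1.54 in the Brg1 line. Bpifb9b read 7.36 and 7.49 in Aire+/+ mTEChi, beside 7.16 and 7.93 in Brg1+/+ mTEChi, against 6.03 in Aire+/+ mTEClo and 5.97 in Brg1+/+ mTEClo (difference 1.49, SE 0.265, adjusted p = 0.0330).

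**Figure D4:**
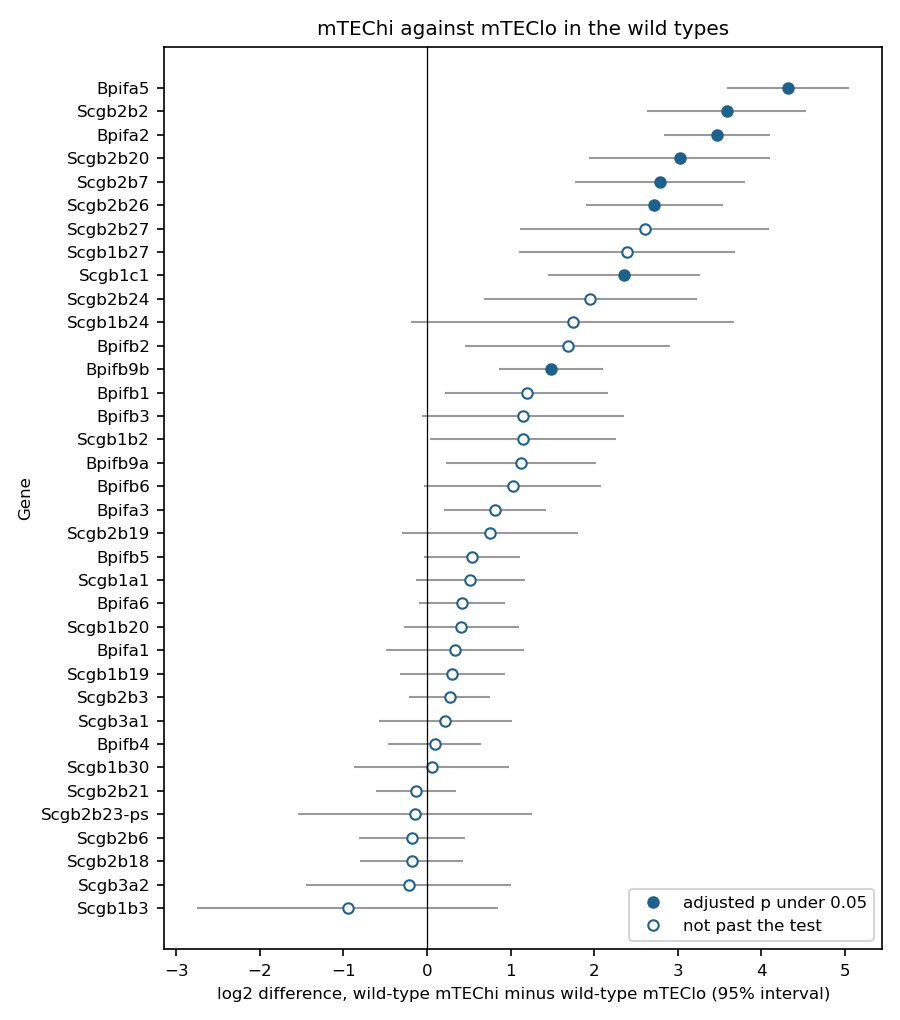
Log2 difference of wild-type mTEChi minus wild-type mTEClo for each of the 36 genes (points) with its 95% interval (lines), sorted by size; filled points passed the test. Bpifa5 is at 4.32 and Bpifa2 at 3.47, while Bpifa1 at 0.34 and Scgb1a1 at 0.52 lie near 0.

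The airway genes Bpifa1 and Scgb1a1, whose readings were lower in Aire-/- mTEChi, did not pass the test between the wild-type fractions. Bpifa1 read 11.68 and 12.26 in Aire+/+ mTEChi, beside 11.53 and 12.21 in Brg1+/+ mTEChi, against 11.54 in Aire+/+ mTEClo and 11.62 in Brg1+/+ mTEClo. The fractions overlapped, with a difference of 0.34 (95% interval -0.49 to 1.17, adjusted p = 0.721). Scgb1a1 read 9.94 and 9.54 in Aire+/+ mTEChi, beside 9.86 and 9.14 in Brg1+/+ mTEChi, against 9.12 and 9.08 in the Aire+/+ and Brg1+/+ mTEClo arrays (difference 0.52, 95% interval -0.13 to 1.17, adjusted p = 0.512). Scgb3a1 and Scgb3a2 also overlapped between the fractions, with differences of 0.22 and -0.22. Bpifb1 differed by 1.19 (95% interval 0.22 to 2.17, adjusted p = 0.273) and Scgb1b27 by 2.39 (adjusted p = 0.0859). For both, all 4 mTEChi arrays lay above the mTEClo arrays, and the test was not passed, except by Scgb1b27 with the block (2.13, adjusted p = 0.0122).

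In mTEClo, each knockout had 1 array against 1, lone arrays were taken to scatter as mTEChi arrays do, and 0 of the 36 genes passed in either comparison (limma; 0% of all genes in each; 1 of the 36 in each had an unadjusted p under 0.05, with 298 and 382 of all genes for Aire and Brg1). In Aire-/- mTEClo relative to Aire+/+ mTEClo, 3 of the 36 were at least 2-fold lower, against 1.57% of all genes, and 0 were at least 2-fold higher, against 0.587%. These were Scgb2b7, with 4.06 in Aire-/- and 6.20 in Aire+/+ mTEClo, Scgb2b20, with 2.99 in Aire-/- and 4.67 in Aire+/+ mTEClo, and Scgb2b27, with 3.42 in Aire-/- and 4.98 in Aire+/+ mTEClo. Scgb2b7 and Scgb2b20 can share probes. The probe sets assigned to both of them lay the other way, at 4.83 in Aire-/- and 4.60 in Aire+/+ mTEClo. Bpifa1 read 11.62 in Aire-/- mTEClo and 11.54 in Aire+/+ mTEClo, and Scgb1a1 read 8.62 in Aire-/- mTEClo and 9.12 in Aire+/+ mTEClo. In Brg1-/- mTEClo relative to Brg1+/+ mTEClo, 3 genes were at least 2-fold lower, against 1.27% of all genes, and 1 at least 2-fold higher, against 1.47%. Scgb2b27 read 3.53 in Brg1-/- and 5.67 in Brg1+/+ mTEClo, Scgb1c1 read 8.03 in Brg1-/- and 9.44 in Brg1+/+ mTEClo, and Scgb2b7 read 4.29 in Brg1-/- and 5.30 in Brg1+/+ mTEClo. Scgb3a2 was the gene with the higher reading, 7.22 in Brg1-/- and 5.33 in Brg1+/+ mTEClo, and that array held its highest value of the 12. The probe sets assigned to both Scgb2b20 and Scgb2b7 read 4.42 in Brg1-/- and 4.41 in Brg1+/+ mTEClo.

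The Aire effect in mTEChi minus the Aire effect in mTEClo was tested as a difference of its own, and 0 of the 36 genes passed, as did 0% of all genes (limma; 9 of the 36 and 547 of all genes had an unadjusted p under 0.05). It was -5.16 for Bpifa5 (95% interval -6.62 to -3.70, adjusted p = 0.136) and -3.39 for Bpifa2 (95% interval -4.66 to -2.12, adjusted p = 0.260). For Bpifa1 it was -1.64 (95% interval -3.29 to 0.01). With array number as a block, Bpifa5 (adjusted p = 0.0114) and Bpifa2 (adjusted p = 0.0407) passed, 2 of the 36 against 0.271% of all genes. Each mTEClo effect rests on 1 array per genotype.

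Array number went with the readings of some members. The share of all genes that lay the same way was not counted. Same-numbered mTEChi arrays deviated together over all 22154 genes (r of 0.552 to 0.657). The counts that follow are therefore not read as particular to the members. In all 4 mTEChi groups, 11 of the 36 were higher on number 1, by 0.36 to 1.66 on average, and 7 were higher on number 2, with number 1 minus number 2 averaging -1.07 to -0.50. Scgb1b3 read 8.72 to 9.16 on the 8 arrays numbered 1 and 7.02 to 7.72 on the 4 arrays numbered 2, while it differed by 0.27 with Aire loss and 0.24 with Brg1 loss in mTEChi. The others higher on number 1 were led by Scgb1b24 (1.52) and Scgb3a2 (1.04). The 7 higher on number 2 were Bpifb2 (-1.07), Bpifb3 (-0.94), Bpifb6 (-0.84), Bpifb1 (-0.76), Bpifa1 (-0.66), Bpifb9a (-0.63) and Bpifa5 (-0.50), all of them BPI-fold genes. Scgb1b3 had a further probe set, not used, that read 4.27 to 5.81. On that probe set Aire-/- mTEChi read 4.59 and 4.28, against 5.81 and 4.69 in Aire+/+ mTEChi, lower without overlap. The probe set used for Scgb1b3 overlapped there. Brg1-/- mTEChi read 4.82 and 4.83 on the further probe set, against 5.63 and 4.27 in Brg1+/+ mTEChi, with overlap. Likeness over the 12 arrays, which carries both genotype and array number, was highest for Bpifa5 with Bpifb9b (r = 0.967), Bpifa2 with Bpifa5 (r = 0.959), Scgb2b7 with Scgb2b20 (r = 0.957) and Bpifb6 with Bpifb3 (r = 0.946).

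Other genes of the same tissues gave the setting, beside the shares of all genes. Of all genes, 0.772% fell and 0.0226% rose in Aire-/- mTEChi, and 0% passed with Brg1 loss in mTEChi. Between the wild-type fractions, 1.93% of all genes were higher in mTEChi and 0.632% were lower. In Aire-/- mTEChi relative to Aire+/+ mTEChi, 3 of 16 measured salivary and lacrimal genes fell, and these were the demilune cell genes Dcpp1, Dcpp2 and Dcpp3 (differences of -7.02, -7.16 and -5.33); the list had a median of -0.57. Of 21 mucosal antimicrobial and mucus genes 5 fell, among them the trefoil factors Tff1 (-3.77) and Tff3 (-2.87) and the cathelicidin gene Camp (-2.45), with a median of -0.99. Of 20 airway secretory and lung genes 1 fell, the surfactant protein gene Sftpc (-3.52, adjusted p = 0.0129), with a median of -0.29. Of 12 genes of ciliated airway cells 0 fell, and of 4 other measured BPI-fold family genes 0 fell, with medians of -0.43 and -0.04. None of these lists had a gene that rose, and in Brg1-/- mTEChi 0 genes of these 5 lists passed in either direction. In wild-type mTEChi relative to wild-type mTEClo, 3 of 16 salivary and lacrimal genes, 5 of 21 mucosal genes and 3 of 20 airway secretory genes were higher, while 2 of 12 ciliated genes, Sntn (-2.10) and Ccdc153 (-1.62), were lower. Marker lists of mTECs (13 measured), cortical epithelium (6), thymocytes (8), dendritic cells, macrophages and B cells (7), and fibroblasts and endothelium (8) had 0 genes past the test in Aire-/- mTEChi. The mean of the thymocyte markers was 5.63 and 6.42 in Aire-/- mTEChi, against 5.59 and 6.63 in Aire+/+ mTEChi.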

How the data were processed

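In the deposited table, each of 33732 probe sets has a linear intensity on each of 12 arrays. The tools in the submitters' processing notes, given without version, role or order, are Affymetrix Expression Console, Transcriptome Analysis Console and RMA. All deposited intensities are powers of 2 whose exponents have 2 decimals. RMA as commonly run corrects background and equalises arrays. Fold changes of dim probe sets can be compressed in its values. Joint normalization of the arrays is neither stated nor denied in the labels. Intensities were taken to log2 with no pseudocount, further normalization or filter. Platform annotation gave 23491 probe sets 1 gene symbol, 1811 several and 8430 none. The probe set with the highest mean over 12 arrays stood for a gene, which left 22154 genes and took 37 probe sets to 36 members; 5 probe sets with several Scgb symbols were not used as members. All 36 matched RefSeq (GRCm38.p6) by Entrez identifier, used for names and gene order; 30 had promoter windows.

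Samples were grouped by genotype, cell fraction and array number in the labels. One limma model (version 3.58.1 in R 4.3.3; lmFit, eBayes) of 8 group means over 12 arrays had 4 residual and 3.46 prior degrees of freedom, and SE and 95% intervals are its moderated ones. Adjusted p is Benjamini-Hochberg over 22154 genes, two-sided, threshold 0.05. Same-numbered arrays deviated together across the 4 mTEChi groups (r of 0.552 to 0.657 over 22154 genes for 6 pairs of groups), though the labels do not say what the number marks, so fits with the number as a block stand beside results whose counts they move. The block was a separate term for each line and left 2 residual and 5.14 prior degrees of freedom. Promoters were read with python 3.11.15 and aligned with biopython 1.88. The number of arrays limits precision; the steps were tested on simulated data. Members, gene lists and tests were chosen with earlier results of these data known. The rule gave every array's value for genes that passed in some comparison, with or without a block for array number, and for Scgb1a1, Scgb3a1, Scgb3a2, Bpifa1, Bpifa2 and Bpifb1; other genes given by array, such as Bpifa3, Scgb2b6, Scgb2b18 and Scgb2b24, were chosen after their values were seen. Of the tissue lists, up to 4 genes of smallest adjusted p were named. Alternatives were another normalization, mTEChi arrays alone, the mean of probe sets, a filter on dim genes, an intensity trend, the array number as a block, leaving out arrays, and each line alone.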

Additional observations from a re-analysis of the deposited data

Results flagged for a closer look

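Bpifa2 differed between the knockouts under the same contrast: the Brg1 effect minus the Aire effect in mTEChi was 3.85 (limma adjusted p = 0.0328), with 7.92 and 7.63 in Brg1-/- and 4.75 and 4.04 in Aire-/- mTEChi, against 8.15 and 7.77 in Brg1+/+ and 8.34 and 8.51 in Aire+/+ mTEChi. Adjusted p ranged from 0.00568 to 0.225 over 15 alternatives, and the 8 that left out 1 array did not pass. Groups held at most 2 arrays, so no test for an array far from its group was made.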

How the results depend on the processing

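No member difference that passed changed sign under the alternatives run for it. Of all 36 differences, 4 changed sign under at least 1 alternative for Aire loss in mTEChi (none larger than 0.26), 5 for mTEChi against mTEClo (none larger than 0.22) and 23 for Brg1 loss in mTEChi (none larger than 1.2). With the replicate block, Aire loss in mTEChi called 13 members lower (adding Scgb3a2, Bpifa6, Bpifa1, Bpifb1, Scgb2b20 and Scgb1b27) and 531 genes in place of 176. The block called 12 members higher and 1534 genes in place of 567 in wild-type mTEChi against mTEClo, adding Bpifb2, Scgb1b2, Scgb1b24 and Scgb1b27. It called 6 members and 201 genes in place of 30 for the Brg1 minus the Aire effect, 3 genes for Aire loss in mTEClo, and 2 members (Bpifa2 and Bpifa5) and 63 genes for the Aire effect in mTEChi minus that in mTEClo. It called 0 members and 0 genes for Brg1 loss in mTEChi. Outside the wild-type comparison the block counts as an alternative added after the data were seen.

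Leaving out 1 array gave 2 to 3 members lower and 53 to 70 genes for Aire loss, 0 to 1 genes for Brg1 loss, 5 to 9 members higher and 307 to 470 genes for mTEChi against mTEClo, and 0 members and 4 to 28 genes for the Brg1 minus the Aire effect. For mTEChi against mTEClo, 3 members and 130 genes passed in the Aire line alone, and 2 members and 80 genes in the Brg1 line alone. Keeping genes above the median intensity gave 5 members higher there, 46 genes for the Brg1 minus the Aire effect and 2 genes for Aire loss in mTEClo, where quantile normalization gave 3. The filter removes members whose mean is dim, by construction; the cause of the other shifts was not tested. The median of all genes in mTEChi against mTEClo was -0.10 as deposited, -0.03 with arrays centred and -0.06 with quantile normalization. With 2 arrays a group and no detection p, differences of dim genes are limited by background.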
